A study of Sus scrofa with 8 samples.

Results

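The genes described here are 10 transcription factors that pattern the neural tube: PAX6, OLIG2, NKX2-2, NKX6-1, DBX1, IRX3, FOXB1, LMX1A, ZIC1 and ZIC2. They were chosen by symbol and were found as 10 of the 21301 genes in the count matrix of each of 8 pig libraries. Single-cell RNA sequencing was performed on somites of embryonic day (E) 16, E18 and E21 and on the myotome, the muscle-forming part of the somite, at E28. Tibetan pigs (ZZ) and crosses of Duroc with Tibetan pigs (DZ) each gave 1 library per stage, named E16-ZZ to E28-DZ. A library pooled 5 embryos of 1 sow, so the embryos of a library were litter mates and single embryos were not measured. The labels name no transgene and no treatment, and all tissue was dissociated with DNase I and collagenase I before cells were caught in droplets. Because there was 1 library for a stage and breed, the 2 breeds served as the 2 libraries of a stage, and every p-value measures only the spread between such pooled libraries. Both E16 matrices name another Cell Ranger version than the other 6, and only E28 was myotome, so version and E16, and tissue and E28, cannot be told apart.

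The neural tube lies between the somites and is the forerunner of the brain and spinal cord. Sonic hedgehog from the notochord and floor plate acts from the ventral side, and BMP and WNT proteins from the roof plate act from the dorsal side. Dividing progenitors read these signals and switch on different homeodomain, bHLH and zinc finger factors, so that each level of the tube, from ventral to dorsal, forms its own kinds of neurons. NKX2-2 marks the most ventral progenitors beside the floor plate, OLIG2 the motor neuron progenitors, and NKX6-1 the broad ventral region that holds both. IRX3, DBX1 and PAX6 mark intermediate and more dorsal levels, and several of these factors repress each other across a boundary, as NKX2-2 and PAX6 do and as DBX1 and the NKX6 factors do. LMX1A is a roof plate factor, ZIC1 and ZIC2 are dorsal zinc finger factors that somites also use, and FOXB1 is a forkhead factor of early neural tissue. HES5, a target of Notch signalling, is kept on in neural progenitors and was used with PAX6 to find these cells.

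On Sscrofa11.1, in RefSeq annotation, the factors lie on 8 chromosomes. PAX6 (chr2:28971565-29001149, plus strand) and DBX1 (chr2:39229392-39234304, plus strand) share chromosome 2, and OLIG2 (chr13:196596838-196602197, plus strand) and ZIC1 (chr13:87740769-87750258, plus strand) share chromosome 13. ZIC1 is joined head to head with ZIC4, a gene of the same family on the minus strand, with 44 bases between the starts of their annotated transcripts. This stretch is shown because ZIC4 was higher in cells with ZIC1 than in cells without it, and both genes moved the same way below. It contains the E-box letters CAGCTG, in capitals, which 13.6% of 19556 RefSeq promoter windows of 250 bases before a gene start also hold on either strand.
ZIC1 to ZIC4 interval (chr13:87740725-87740768, plus strand): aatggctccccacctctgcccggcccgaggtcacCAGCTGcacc

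The 250 bases before the gene starts of NKX6-1 (chr8:134137064-134143524, plus strand) and DBX1 are shown because these factors were almost never found in the same cell. Capitals mark the letters CCAAT on either strand (ATTGG when read on the strand shown), which 31.9% of the promoter windows contain. Each of the pair holds 2 matches, at 87 and 17 bases before the NKX6-1 start and at 126 and 102 bases before the DBX1 start. The windows of PAX6, LMX1A and IRX3 hold the letters too, which makes 5 of 10 members. A longer word for GLI factors, GACCACCCA, was found in no window of the 10 members and in 0.215% of all windows. A match of letters is a description and not a binding site.
NKX6-1 (chr8:134136814-134137063, plus strand): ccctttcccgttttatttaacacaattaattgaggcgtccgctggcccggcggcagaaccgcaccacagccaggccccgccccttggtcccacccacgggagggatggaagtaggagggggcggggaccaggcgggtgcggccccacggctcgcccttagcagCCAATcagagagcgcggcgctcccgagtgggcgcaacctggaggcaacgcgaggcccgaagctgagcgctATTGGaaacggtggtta
DBX1 (chr2:39229142-39229391, plus strand): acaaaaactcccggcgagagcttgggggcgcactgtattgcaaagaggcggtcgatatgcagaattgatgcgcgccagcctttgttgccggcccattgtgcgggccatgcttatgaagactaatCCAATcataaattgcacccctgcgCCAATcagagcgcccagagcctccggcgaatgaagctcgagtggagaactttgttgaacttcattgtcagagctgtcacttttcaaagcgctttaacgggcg

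Of 90688 barcodes, 74868 cells were kept after filtering, with 42273403 to 58222298 UMIs (distinct RNA molecules counted) per library and a median of 3406 to 6225 UMIs per cell. E16-ZZ stood apart, with 39.2% of barcodes over the limit of 10% mitochondrial UMIs against at most 9.15% in the others, and for the members and the gene lists the step from E16 to E18 is also given without it. 690 barcode sequences occurred in 2 or more libraries. Cells were clustered without the 10 members and HES5, and 19 of 35 clusters met the marker rule for a name. Clusters 16 and 29 are nevertheless called by number, a choice made after the data were seen, because the rule gave them as paraxial mesoderm and fibroblast while PAX1, a sclerotome gene, leads the one and ACTG2 and RGS5 are among the first 3 genes of the other. The markers SOX1, SOX2 and RFX4 of neural progenitors were not analysed here. Clusters 9, 10 and 34 (2717, 2702 and 127 cells) reached 2 of the 3 progenitor markers needed for a name and no neuronal marker, and are called FABP7+ MSI1+ after those genes. Cluster 11 (2667 cells) reached 3 progenitor markers (NES, FABP7 and MSI1) and 4 neuronal ones (ELAVL3, ELAVL4, DCX and TUBB3). The naming rule placed it, with cluster 14 (2422 cells, 6 neuronal markers), in the neuron-like class. Its FABP7 was 8.69-fold over other cells, against 4.07-fold and 2.63-fold in clusters 9 and 10. But 1476 and 614 of its cells came from E21-ZZ and E21-DZ. In cells with PAX6 or HES5, FABP7 was far higher at E21 than at E18 (below). Stage and cluster thus cannot be told apart in this order of FABP7. The leading genes of cluster 11 included HES5 and HES6, and also DLL3 and NEUROD4, genes of cells that leave the progenitor state. Cluster 11 thus showed markers of both lists, in the sum of its cells, and values of the neuron-like class join it with cluster 14. FABP7+ MSI1+ cells made up between 3.48% and 15.5% of the somite libraries, and 0.182% and 0.210% of E28-ZZ and E28-DZ.

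The 10 factors differed greatly in how much of their RNA lay in the neural clusters. All 6 UMIs of OLIG2 lay there, as did 90.1% of the 7114 UMIs of PAX6, 88.7% of the 702 of NKX2-2, 82.6% of the 2334 of FOXB1 and 81.7% of the 3455 of NKX6-1. Over all 8 libraries the share was 56.6% for DBX1 (1287 UMIs), 51.4% for LMX1A (1425 UMIs) and 40.7% for IRX3 (6150 UMIs). It was 21.8% for ZIC2 (17924 UMIs) and 11.7% for ZIC1 (2272 UMIs), so that most RNA of these dorsal factors came from other cells of the somite. These shares include E28, where neural cells were few. In the 6 somite libraries alone 91.1% of the 800 UMIs of DBX1 were neural, beside 90.1% for PAX6 and 82.5% for NKX6-1, and the shares of LMX1A, IRX3, ZIC2 and ZIC1 were 63.8%, 47.1%, 32.6% and 24.4%. Over all libraries, 37.1% of DBX1 UMIs lay in skeletal myogenic-like cells, and 53.6% of ZIC1 UMIs in clusters without a name.

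**Figure D1:**
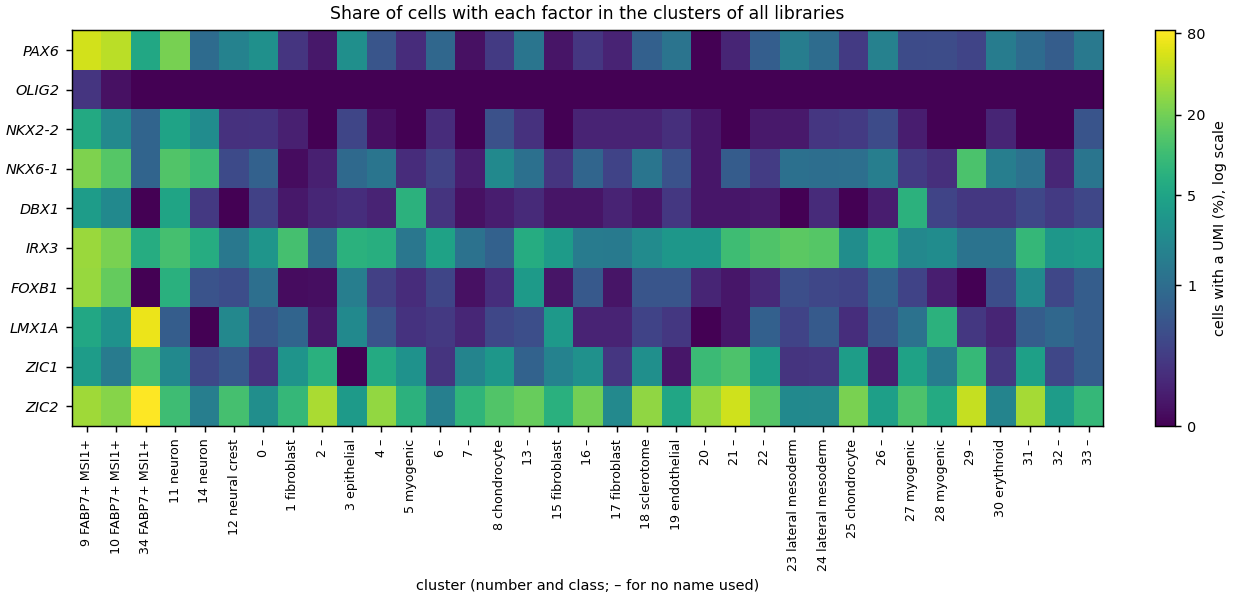
Share of cells (%, colour on a log scale) in which at least 1 UMI of each factor was found, for the 35 clusters of all libraries together, neural clusters at the left and a dash where no class name is used. PAX6, NKX6-1, FOXB1 and IRX3 are bright in clusters 9 and 10, LMX1A and ZIC2 in cluster 34, DBX1 also in the myogenic clusters 5 and 27, and ZIC2 across many clusters.

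Mean levels by cell class, in CPM (summed UMIs scaled to the library total with TMM factors), showed the same placement. PAX6 was at 128 ± 65.9 CPM (SD over 7 libraries) in FABP7+ MSI1+ cells and at 30.8 ± 23.1 CPM (SD over 8 libraries) in neuron-like cells (clusters 11 and 14 together). NKX2-2 and NKX6-1 had their highest means in neuron-like cells, at 20.3 ± 17.0 and 67.9 ± 63.4 CPM, against 6.93 ± 4.79 and 40.1 ± 30.2 CPM in FABP7+ MSI1+ cells. These SDs include the differences between stages. Within a library, the neuron-like level was the higher in 6 of 6 somite libraries for both genes, by 1.73 to 7.05 times for NKX2-2 and 1.55 to 2.18 times for NKX6-1, given without a test because the classes were made from these cells. ZIC2 was at 85.4 ± 41.4 CPM in FABP7+ MSI1+ cells, 83.2 ± 31.4 CPM in sclerotome-like cells (cluster 18, led by PAX1, MICALL2 and STRA6) and 66.6 ± 26.2 CPM in cluster 16, which is led by PAX1, MICALL2 and MOXD1 and so shares its first genes with cluster 18. The first 2 of these means change order without TMM (94.8 and 95.7 CPM), and FABP7+ MSI1+ cells were above sclerotome-like cells in 4 of 6 somite libraries. ZIC1 was at 11.2 ± 16.4 CPM in cluster 16, 11.2 ± 12.9 CPM in sclerotome-like cells and 7.72 ± 9.54 CPM in FABP7+ MSI1+ cells over the libraries with E28, but in the somite libraries FABP7+ MSI1+ cells were above sclerotome-like cells in 6 of 6. IRX3, at 46.0 ± 23.8 CPM in FABP7+ MSI1+ cells, reached 21.6 ± 9.21 CPM in lateral mesoderm-like cells.

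To follow the factors within neural cells, cells with at least 1 UMI of PAX6 or HES5 were taken, 6279 cells or 8.39% of all. They numbered 454 and 933 in the ZZ and DZ libraries of E16, 1455 and 1311 in those of E18, 1533 and 475 in those of E21, and 31 and 87 in those of E28. PAX6 was not found in any E28 cell, so the E28 cells were taken for HES5 alone, and E28 was left out of the tests on these cells. 57.6% of them lay in FABP7+ MSI1+ clusters. This make-up changed with stage. FABP7+ MSI1+ cells were 68.9% and 68.0% of them in E16-ZZ and E16-DZ, 73.3% and 79.3% in E18-ZZ and E18-DZ, and 24.8% and 34.7% in E21-ZZ and E21-DZ. Cluster 11, with progenitor and neuronal genes, made up 1.76% and 1.71% at E16, 3.99% and 5.87% at E18 and 59.1% and 46.5% at E21, whereas neuron-like cluster 14 was 4.76% and 5.05% at E21. Differences between E21 and E18 are therefore also given within the FABP7+ MSI1+ clusters, within these and cluster 11 joined, and within cluster 11 alone, where DBX1, NKX2-2, NKX6-1, IRX3, FOXB1 and ZIC2 had counts enough to be fitted and ZIC1 and LMX1A did not. These fits were added after the data were seen. The joined clusters do not hold the make-up fixed, because cluster 11 was a small part of their cells at E18 and most of them at E21. The part of this shift in the joined values was not tested. PAX6 itself was at 212, 257, 206, 252, 137 and 194 CPM in the 6 somite libraries from E16-ZZ to E21-DZ. HES5 was at 188, 123, 287, 227, 801 and 190 CPM in the same order, so E21-ZZ stood apart. There 587 of the 1533 cells held PAX6, against 279 of the 475 in E21-DZ. These values are given without a test because PAX6 and HES5 chose the cells.

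In cells with PAX6 or HES5, NKX2-2, the most ventral factor of the set, was scarce at E16 and higher at E18. It was found in 1.32% and 1.29% of the cells with PAX6 or HES5 in E16-ZZ and E16-DZ, in 4.26% and 5.26% in E18-ZZ and E18-DZ, and in 2.41% and 1.68% in E21-ZZ and E21-DZ. The levels were 3.29 and 2.32 CPM at E16, 10.4 and 13.9 CPM at E18, and 9.15 and 7.76 CPM at E21. Both E18 libraries thus lay above both E16 libraries and above both E21 libraries. HES5 was in 264 of 454 and 420 of 933 cells at E16, and 1079 of 1455 and 836 of 1311 at E18. With all cells of a cluster taken, NKX2-2 was in 2.67% and 4.17% of cluster 9 at E16 and 8.18% and 8.76% at E18. In cluster 11 it was in 5.41% and 15.9%, then 13.9% and 10.7%. The difference in whole libraries from E16 to E18 was 1.52 and did not pass (adjusted p = 0.189, edgeR quasi-likelihood test with Benjamini-Hochberg adjustment). In cells with PAX6 or HES5 NKX2-2 rose by 2.15 on the log2 scale from E16 to E18 (SE 0.35, adjusted p = 0.00892, same test). Without E16-DZ the value was 1.73 with an adjusted p of 0.0784, and without E16-ZZ it was 2.45 with an adjusted p of 0.000291. From E18 to E21 the difference of −0.44 did not pass the test in all these cells (adjusted p = 0.331), but within the FABP7+ MSI1+ clusters NKX2-2 fell by 1.16 (SE 0.30, adjusted p = 0.0153) and within cluster 11 by 1.55 (adjusted p = 0.000786). With cluster 11 joined to the FABP7+ MSI1+ clusters it was −0.45 and did not pass.

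NKX6-1, the broader ventral factor, was found in 17.4% and 12.8% of the cells at E16 (ZZ and DZ), in 23.4% and 22.3% at E18, and in 8.81% and 5.47% at E21. Its levels were 49.1 and 37.0 CPM, then 69.9 and 86.7 CPM, then 32.9 and 17.2 CPM, so both E21 libraries lay below all 4 earlier ones. Without TMM factors E21-ZZ, at 35.4 CPM, lay above E16-DZ, at 32.8 CPM, but still below both E18 libraries. NKX6-1 fell by 1.56 on the log2 scale from E18 to E21 (SE 0.25, adjusted p = 0.00176), and within the FABP7+ MSI1+ clusters by 2.10 (SE 0.23, adjusted p = 1.86e-05). It fell by 2.08 within cluster 11 (adjusted p = 6.58e-07), and by 1.55 with both joined (adjusted p = 0.00213). In the gated cells the fall still passed with any library of E16 to E21 left out, at values from −2.14 to −1.16. The difference of 0.87 from E16 to E18 did not pass (adjusted p = 0.0626). With each library of E16 to E21 left out in turn, this difference ranged from 0.36 to 1.31. It was 1.02 without E16-ZZ, 1.31 without E18-ZZ and 0.87 without E21-ZZ or E21-DZ. Without either E21 library it rests on the same E16 and E18 libraries, so these are the same result.

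OLIG2 could not be followed. Its 6 UMIs lay in 6 cells of 5 libraries, both of E16, both of E18 and E21-ZZ, of which E16-DZ held 2 UMIs and the others 1 each, and it passed no filter on low counts. 5 of these cells had PAX6 or HES5, 3 of them also NKX6-1. No UMI was found in E21-DZ and in the E28 libraries. With so few UMIs a change of OLIG2 was not detectable at this depth.

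DBX1, the factor of the intermediate progenitors, was higher at each stage than at the one before. It was found in 1.32% and 0.214% of the cells at E16 (ZZ and DZ), in 4.05% and 3.74% at E18, and in 6.59% and 5.68% at E21. The E16 values rest on 7 and 3 UMIs, against 84 and 91 at E18 and 308 and 66 at E21, and the share in E16-DZ was close to the 0.198% of erythroid-like cells. In CPM the levels were 2.56 and 0.536, then 9.96 and 11.4, then 47.8 and 28.4, without overlap between the stages. With all cells of a cluster taken, DBX1 was found in 1.33% and 0.833% of cluster 9 at E16 and 4.65% and 5.40% at E18. In cluster 10 the shares were 1.17% and 0.717%, then 4.63% and 2.43%. The difference in whole libraries from E16 to E18 was 1.81 and did not pass (adjusted p = 0.234). In the cells with PAX6 or HES5 DBX1 rose by 3.04 on the log2 scale from E16 to E18 (SE 0.48, adjusted p = 0.00766). The size of this rise depended on the library, at 4.11 without E16-ZZ, 2.15 without E16-DZ and 2.45 without E18-DZ, with adjusted p between 5.48e-12 and 0.0209 over all 6 libraries left out in turn. DBX1 rose by a further 1.86 from E18 to E21 (SE 0.29, adjusted p = 0.00151), and by 1.25 without E18-ZZ (adjusted p = 0.00788). Within the FABP7+ MSI1+ clusters the value from E18 to E21 was 0.78 and did not pass (adjusted p = 0.176). With cluster 11 joined to them DBX1 rose by 1.88 (SE 0.21, adjusted p = 0.000119). The share of cluster 11 in the joined clusters was larger at E21, and its part in this rise was not tested.

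The clusters show which cells held DBX1 at E21. In cluster 11, led by IGFBPL1, DLL3 and NEUROD4, DBX1 was found in 0% and 0.444% of the cells of E18-ZZ and E18-DZ and in 6.23% and 6.68% of those of E21-ZZ and E21-DZ. DLL3 and NEUROD4 are genes of cells that leave the progenitor state to become neurons. In cluster 9, the FABP7+ MSI1+ cluster richest in PAX6, the shares were 4.65% and 5.40% at E18 and 7.16% and 2.83% at E21. In cluster 14, neuron-like and led by INA, SNCG and TUBB3, DBX1 was found in 0.227% of the cells of the somite libraries. Within cluster 11 DBX1 passed the test for E21 against E18 (adjusted p = 2.75e-08), where only 1 E18 cell held it, so that no size is given.

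IRX3, a factor of intermediate and dorsal progenitors, was found in 24.7% and 25.5% of the cells at E16 (ZZ and DZ), 26.4% and 30.9% at E18, and 14.5% and 22.1% at E21. The levels of 54.9, 60.5, 62.4 and 77.6 CPM at E16 and E18 were followed by 38.6 and 53.4 CPM at E21. IRX3 fell by 0.58 from E18 to E21 (SE 0.15, adjusted p = 0.0225), and by 0.74 within the FABP7+ MSI1+ clusters (adjusted p = 0.00546), or 0.67 with cluster 11 joined to them (adjusted p = 0.00708). The call was lost without E18-ZZ, E18-DZ or E21-ZZ (adjusted p = 0.0991, 0.104 and 0.144), and also with DESeq2 (adjusted p = 0.120), so it holds only in part of the fits. Within cluster 11 the direction turned (0.78, adjusted p = 0.141). From E16 to E18 the difference of 0.25 did not pass, nor did it without E16-ZZ (0.39). An annotated antisense gene, LOC110261350, overlaps IRX3, and nothing in the sources used here states whether the counting used the strand.

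FOXB1 was found in 23.1% and 18.8% of the cells at E16 (ZZ and DZ), 24.6% and 27.2% at E18, and 10.4% and 10.7% at E21, and its levels were 52.3, 39.5, 55.8, 67.1, 29.5 and 23.7 CPM in the same order. Both E21 libraries lay below all 4 earlier ones. FOXB1 fell by 1.15 from E18 to E21 (SE 0.20, adjusted p = 0.00292), by 1.07 within the FABP7+ MSI1+ clusters (adjusted p = 0.000812) and by 1.25 with cluster 11 joined to them (adjusted p = 0.000395). Within cluster 11 alone the difference of −0.32 did not pass (adjusted p = 0.693). The difference of 0.42 from E16 to E18 did not pass (adjusted p = 0.224), nor did that of 0.65 without E16-ZZ (adjusted p = 0.117).

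Of the dorsal factors ZIC1, ZIC2 and LMX1A, only ZIC1 passed a stage test in all cells with PAX6 or HES5. ZIC1 was found in 0.881% and 0.536% of the cells at E16 (ZZ and DZ), 1.31% and 1.53% at E18 and 4.11% and 4.84% at E21, at 1.46, 0.893, 2.49, 2.62, 12.4 and 10.8 CPM. It rose by 2.22 from E18 to E21 (SE 0.34, adjusted p = 0.00151), by 2.58 within the FABP7+ MSI1+ clusters (adjusted p = 4.01e-05) and by 2.05 with cluster 11 joined to them (adjusted p = 0.000836). Within cluster 11 alone it was too scarce to be tested, in 0% and 0.444% of the cells at E18 and 2.51% and 3.91% at E21 (ZZ and DZ). The difference of 1.17 from E16 to E18 did not pass (adjusted p = 0.207), nor did that of 1.45 without E16-ZZ (adjusted p = 0.322). ZIC2, which has the most UMIs of the set over all cells and 2409 in cells with PAX6 or HES5, was at 84.9, 81.6, 62.0, 85.7, 65.3 and 37.1 CPM, with libraries of the 3 stages overlapping. It passed neither stage test, at −0.19 and −0.45 (adjusted p = 0.220 for E21 against E18). The latter passed without E18-ZZ (−0.94, adjusted p = 0.00439) and without E21-ZZ (−1.04, adjusted p = 0.0172), and also in the FABP7+ MSI1+ clusters joined with cluster 11 (−0.71, adjusted p = 0.0326). It was −0.19 in the FABP7+ MSI1+ clusters alone and 0.70 in cluster 11 alone, and passed in neither. LMX1A, the roof plate factor, lay between 3.57 and 9.82 CPM in the 6 libraries, with differences of −0.35 and −0.77 (adjusted p = 0.126 for the latter) that did not pass. In the FABP7+ MSI1+ clusters joined with cluster 11 it fell by 1.15 from E18 to E21 (adjusted p = 0.00194), but in the FABP7+ MSI1+ clusters alone the value was −0.24 (adjusted p = 0.488). The part of the larger cluster 11 share at E21 in the joined values of ZIC2 and LMX1A was not tested. Without E16-ZZ the values from E16 to E18 were −0.19 for ZIC2 and −0.48 for LMX1A, and neither passed.

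**Figure D2:**
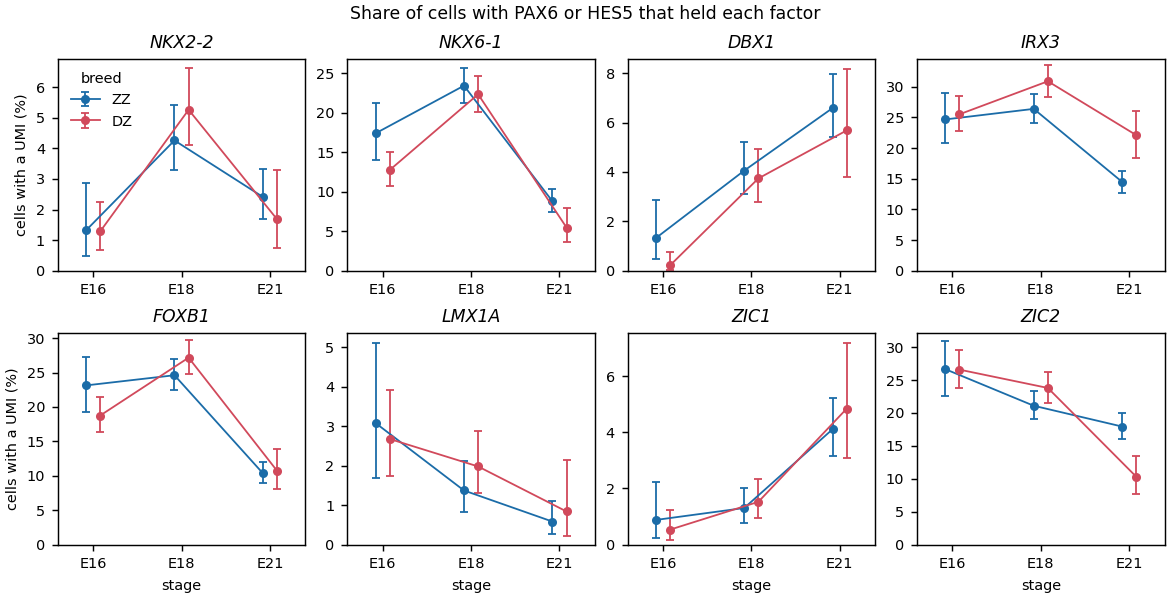
Share of cells with PAX6 or HES5 (%) that held at least 1 UMI of each factor at E16, E18 and E21, for ZZ (blue) and DZ (red) libraries; bars are exact 95% binomial intervals of a library. NKX2-2 is highest at E18, DBX1 and ZIC1 are highest at E21, and NKX6-1 and FOXB1 are lowest at E21 in both breeds.

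The exact binomial intervals of these shares cover counting error only. Erythroid-like cells, which should lack the factors, held PAX6 in 1.59%, NKX6-1 in 1.69%, ZIC2 in 1.98% and IRX3 in 1.19% of 1008 cells, FOXB1 in 0.397%, DBX1 and ZIC1 in 0.198%, and NKX2-2 and LMX1A in 0.0992%. Their median depth was 6544.5 UMIs per cell, against 4538 UMIs in cells with PAX6 or HES5. Median depth of the latter differed between libraries, from 3462 UMIs in E21-ZZ to 5554 UMIs in E18-ZZ. With every cell thinned to 2000 UMIs, for which 8, 47, 100, 114, 84 and 17 shallower cells of the 6 libraries were set aside, NKX6-1 was found in 10.99%, 5.53%, 12.0%, 12.8%, 5.52% and 3.28% of cells, and FOXB1 in 8.07%, 6.66%, 10.3%, 11.03%, 6.00% and 4.59%. Thinned shares of DBX1 were 0.448%, 0%, 2.21%, 1.67%, 5.11% and 4.59%, and of ZIC1 0%, 0.226%, 0.443%, 0.418%, 1.93% and 1.31%. The thinned share of ZIC2 was 12.0% in E21-ZZ against 9.59% in E18-ZZ, opposite in order to its unthinned 17.9% and 21.1%, so no order is read from the ZIC2 shares. For IRX3 the thinned shares were 11.7%, 11.5%, 11.3%, 14.4%, 8.76% and 12.2%, so that E21-DZ, unlike in the unthinned shares, lay above both E16 libraries and E18-ZZ, and no order is read from them either.

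The members' changes are set beside those of all genes. From E16 to E18, 528 of 11898 genes tested in cells with PAX6 or HES5 passed, which is 4.44%, with 1.84% higher and 2.60% lower at E18. 8 members were tested, since OLIG2 was too scarce and PAX6 chose the cells, and 2 of the 8 passed, both higher. The median log2 fold change of the 8 was 0.65, against 0.02 over all genes. From E18 to E21, 2468 genes or 20.7% passed, with 11.3% higher and 9.40% lower at E21. Of the 8 members 2 were higher (DBX1 and ZIC1) and 3 lower (NKX6-1, IRX3 and FOXB1), and their median was −0.51, against −0.01 over all genes. Both steps share the E18 libraries. How many of all genes had no overlap between the libraries of 2 stages is not given here. The statements on overlap above therefore only describe the levels of each factor.

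**Figure D3:**
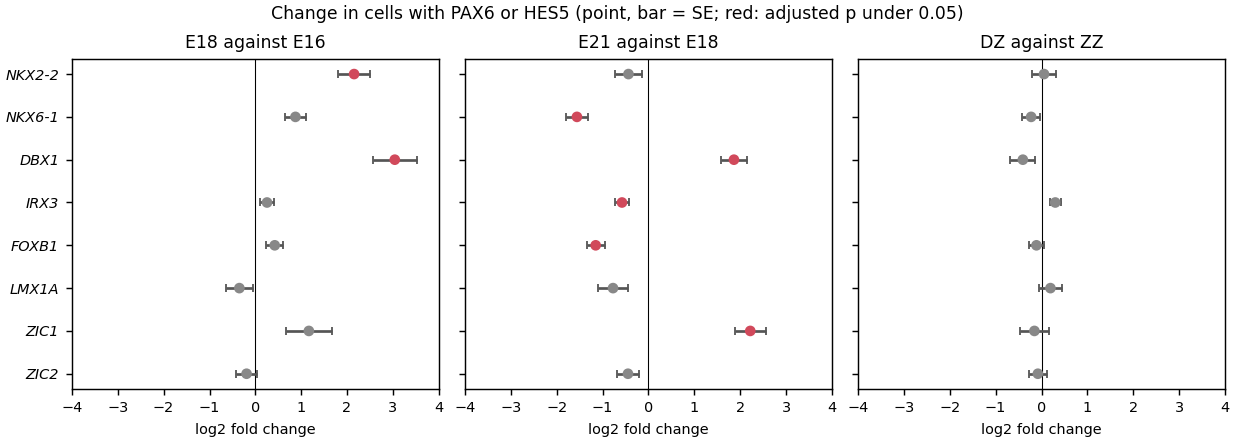
Log2 fold change (point) and its SE (bar) of the 8 tested factors in cells with PAX6 or HES5, for E18 against E16, E21 against E18 and DZ against ZZ; red points passed an adjusted p of 0.05. NKX2-2 and DBX1 are higher at E18, DBX1 and ZIC1 are higher and NKX6-1, IRX3 and FOXB1 lower at E21, and no factor passed between the breeds.

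Between the breeds no factor passed. In the fit of DZ against ZZ with stage as a term, 0 of 11898 genes passed (0% in all, 0% higher and 0% lower) with edgeR, where 970 genes had an unadjusted p under 0.05, and DESeq2 passed 5 genes and no member. IRX3 had the lowest p of the members, at a difference of 0.30 (unadjusted p = 0.0352, adjusted p = 0.589), and was higher in DZ at each of the 3 stages. The median of the 8 members was −0.09, against 0.00 over all genes.

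Of 25 other dorsoventral factors, neighbours of the 10 in the patterning network, 11 could be tested. From E16 to E18, where 4.44% of all genes passed, 2 were higher, PRDM8 (2.31), a factor of interneurons and their progenitors, and ZIC4 (2.13), and none was lower, with a list median of 0.55. Without E16-ZZ both passed again (2.77 and 2.14), and MSX1 and DBX2 joined them, with a list median of 0.51. At E21 against E18, where 20.7% of all genes passed, 5 were higher. These were the dorsal factors PAX3 (1.10) and PAX7 (2.54), ZIC4 (2.45), IRX5 (1.26) and PRDM8 (1.60). 4 were lower, namely FOXA2 (−1.35), a floor plate factor, NKX6-2 (−1.02), a relative of NKX6-1, DBX2 (−1.44), a relative of DBX1, and MSX1 (−1.03), a dorsal midline factor. The list median was 0.58. Within the FABP7+ MSI1+ clusters 5 of 12 were higher and 3 lower, with a median of 0.62, in a fit where 17.3% of 11206 genes passed (9.63% higher and 7.67% lower) with a median of −0.01. There DBX2 fell by 1.64 (adjusted p = 0.00252), GBX2 was higher as well (0.94), and MSX1 and IRX5 were not. Within cluster 11, 3 of 8 were higher (PAX3, PAX7 and ZIC4) and 1, FOXA2, was lower, with a median of 0.98, and DBX2 was too scarce to be tested. In that fit 8.20% of 7314 genes passed (4.40% higher and 3.80% lower), with a median of 0.01. With cluster 11 joined to the FABP7+ MSI1+ clusters 24.3% of 11800 genes passed (12.8% higher and 11.5% lower), with a median of 0.00. The counts of the lists below within these clusters stand beside the same shares. In the fit on all cells with PAX6 or HES5, PAX3, PAX7, ZIC4, PRDM8 and DBX2 passed with any library left out. IRX5 was not called without any 1 of the E18 and E21 libraries, FOXA2 and NKX6-2 without E18-DZ or E21-DZ, and MSX1 without E18-DZ, E21-ZZ or E21-DZ.

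Of 18 genes of hedgehog and dorsal signals 10 were tested. From E16 to E18 the hedgehog receptor and target PTCH1 was higher (0.68) and the WNT agonist RSPO3 lower (−1.21), with a list median of 0.42. Without E16-ZZ the value of PTCH1 was 0.72, RSPO3 was lower again (−1.12) and HHIP higher, with a list median of 0.45. PTCH1 was not called without E16-ZZ, E16-DZ or E18-DZ. From E18 to E21 GLI1, a transcriptional target of hedgehog signalling, was lower (−1.42), at 25.8 and 31.1 CPM in E18-ZZ and E18-DZ and 9.77 and 10.8 CPM in E21-ZZ and E21-DZ. PTCH1 was not called at this step. HHIP (1.04), BOC (0.60) and CDON (0.81), which bind hedgehog ligands at the cell surface, were higher, and the list median was 0.13. HHIP was at 18.5 and 24.5 CPM in E18-ZZ and E18-DZ and 35.7 and 51.3 CPM in E21-ZZ and E21-DZ. Genes of the pathway thus moved both ways. BOC was not called without E18-ZZ or E21-ZZ, nor CDON without E18-ZZ, E18-DZ or E21-ZZ. Within the FABP7+ MSI1+ clusters 5 of 11 were higher and 2 lower (GLI1 at −1.44), with a median of 0.58, and within cluster 11, where GLI1 was not tested, 4 of 7 were higher and none lower, with a median of 1.53.

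Genes of axial position, of neurons and of progenitors differed between the stages too. From E16 to E18, 3 of 13 tested axial position genes were lower, namely SIX3, OTX2 and the HOX gene HOXC10. HOXB8 (1.02) was the only one higher, and the list median was −0.22. Without E16-ZZ the value of HOXB8 was 0.75 (adjusted p = 0.0527), HOXB2 was called higher in its place, and the list median was −0.56. SIX3 and OTX2, factors of the forebrain and midbrain, had 75 and 34 UMIs in E16-ZZ and 346 and 129 in E16-DZ, but at most 1 UMI each in any E18 or E21 library. From E18 to E21, 8 of 13 were higher and none lower, with a list median of 1.58, among them EN1 (2.32), HOXC6 (2.95), HOXA9 (3.87) and HOXC9 (3.53), and the HOX genes mark trunk levels. E18-DZ stood apart in them, with HOXA9 at 2.50 CPM against 20.4 CPM in E18-ZZ and HOXC9 at 4.87 against 21.0 CPM. Without E18-DZ the values were 2.85 for HOXA9 and 2.62 for HOXC9, without E18-ZZ they were 5.84 and 4.90, and both passed in each case. EN1 was not called without E18-DZ or E21-ZZ. Within the FABP7+ MSI1+ clusters 8 of 13 axial genes were higher (EN1 was not, at −0.24), with a median of 0.83, and within cluster 11 5 of 10, with a median of 0.84, and none was lower in either. Of 11 tested neuron genes 4 were higher and 1, LHX5 (−3.88), lower at E18 than at E16, with a list median of 0.98 (0.54 without E16-ZZ, where LHX5 was at −3.96), and 9 were higher and none lower at E21 than at E18, with a list median of 2.25. Within the FABP7+ MSI1+ clusters 3 of 10 neuron genes were higher and none lower (median 1.66), and within cluster 11 1 of 10 was higher and 1 lower (median −0.051). STMN2, for example, was at 39.9 and 57.8 CPM at E18 and at 604 and 509 CPM at E21. Of 7 tested neural progenitor genes 3 were higher (NES, MSI1 and NOTCH1) and FABP7 lower (−0.91) at E18, with a list median of 0.60. Without E16-ZZ, MSI1 was not called (0.55), FABP7 was at −0.97 and the list median was 0.55. FABP7 was not called without E16-DZ or E18-DZ, nor NOTCH1 without E16-DZ. The MSI1 call was lost without any 1 of the E16 and E18 libraries. At E21 5 were higher, among them FABP7 (4.10), and the list median was 1.02. Within the FABP7+ MSI1+ clusters 4 of 6 were higher (FABP7, MSI1, HES1 and NOTCH1, median 0.94), and within cluster 11 3 of 6 (NES, FABP7 and MSI1, median 0.57). FABP7 and MSI1 gave the former clusters their name, and NES, FABP7 and MSI1 are the progenitor markers that cluster 11 reached. The counts of these genes are therefore not independent of the choice of clusters. The part of axial level and of neuron share in the changes of the 10 factors was not tested beyond these values within clusters.

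Which factors were found in the same cell was compared with the number expected from the share of each within 5 bins of depth, in the 6161 cells with PAX6 or HES5 of the somite libraries. NKX6-1 and DBX1, which lie on either side of a boundary in the tube, were found together in 4 cells, against 37.8 expected from 993 and 244 cells. The number was below expectation in E18-ZZ, E18-DZ and E21-ZZ, with 2, 1 and 1 cells against 14.2, 12.3 and 8.62 expected. It was 0 in E16-ZZ, E16-DZ and E21-DZ, where only 0.958, 0.295 and 1.35 were expected, so that these libraries add little. With every cell thinned to 2000 UMIs it was 1 cell against 11.34 expected. PAX6 and NKX2-2 were looked at in the 4284 cells with HES5 only, because PAX6 is part of the choice of cells. They were found together in 28 cells against 81.1 expected, below expectation in all 6 libraries, with under 5 expected in E16-ZZ, E16-DZ and E21-DZ (2.60, 4.17 and 1.89), and after thinning in 6 cells against 24.2 expected.

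Other pairs were found together more often than expected. NKX2-2 and NKX6-1 shared 132 cells against 39.3 expected, above expectation in 6 of 6 libraries, so that 132 of the 194 cells with NKX2-2 also held NKX6-1. ZIC1 and ZIC2 shared 82 cells against 28.5, and LMX1A and ZIC1 shared 10 cells against 2.19, both above expectation in 6 of 6 libraries. After thinning, NKX2-2 and NKX6-1 shared 37 cells against 10.7 (above in 6 libraries) and ZIC1 and ZIC2 16 cells against 5.006 (above in 5). LMX1A and ZIC1 then shared 1 cell against 0.276, above in 1 library and below in 4, so this pair is not resolved at equal depth. DBX1 and IRX3 shared 98 cells against 57.1, above in 5 libraries and below in E16-DZ, where only 2 cells held DBX1. FOXB1 and DBX1 shared 55 cells against 46.6, above in 4 libraries and below in the other 2, and so were close to expectation. The pairs of OLIG2 rest on 5 cells and are not read.

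**Figure D4:**
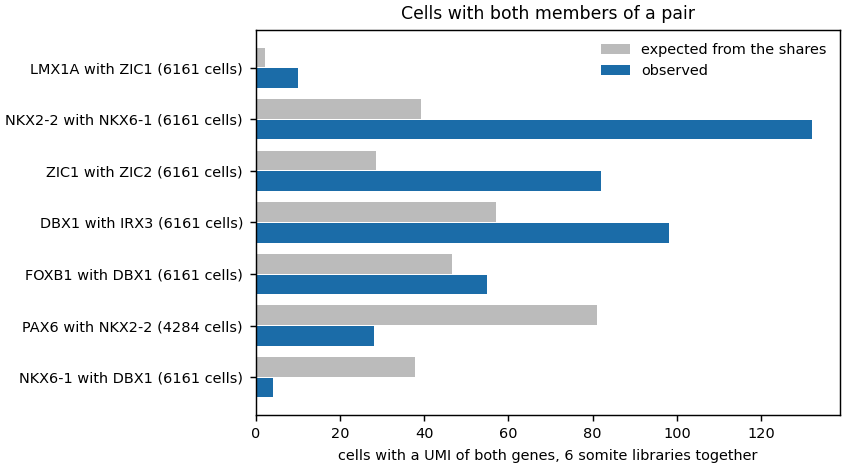
Number of cells with a UMI of both genes of a pair (blue) and number expected from the shares of each gene within bins of depth (grey), in the 6 somite libraries together. Only NKX6-1 with DBX1 and PAX6 with NKX2-2 lie below expectation, with 4 and 28 cells. NKX2-2 with NKX6-1 lies furthest above it in number of cells, with 132, though not as a ratio.

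The genes most like each factor were taken as those with the largest median log2 ratio, of CPM plus 10, between cells with and without the factor among the cells with PAX6 or HES5, if higher in every library with at least 20 positive cells. These are descriptions over 3 to 6 libraries, and the cells share their libraries. For NKX2-2 (168 positive cells in 3 libraries) the leading gene was FOXA2 (3.58), followed by IGFBP5 (2.69), SPON1 (1.97) and NKX6-1 (1.94). SPON1 is a floor plate protein and FOXA2 a floor plate factor. For NKX6-1 (993 positive cells in 6 libraries) it was NKX2-2 (1.57), followed by FOXA2 (1.54). For DBX1 (236 positive cells in 4 libraries) it was DBX2 (2.004), followed by HTATIP2 (1.04), which lies 177214 bases from DBX1 on chromosome 2. For PAX6, which chose the cells, only cells with HES5 were compared (1819 positive of 4284 cells in 6 libraries), and the WNT antagonist SFRP2 (1.57), DBX2 (1.19) and the cadherin CDH7 (1.18) led. IRX3 was led by DBX2 (0.70) and FOXB1 by FGFBP3 (0.80) and NKX6-1 (0.73).

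LMX1A (71 positive cells in 3 libraries) was led by TPBG (3.04), CTSL (3.02), RSPO3 (2.78), CDH6 (2.64) and MSX1 (2.64). ZIC1 (106 positive cells in 3 libraries) was led by its neighbour ZIC4 (2.29), by ZIC5 (1.75) and by ZIC2 (1.73), with MSX1 and FZD10 after them. ZIC2 (1312 positive cells in 6 libraries) was led by MSX1 (1.97), with ZIC5, ZIC4, PAX3 and LMX1A after it. ZIC5 lies 10330 bases from ZIC2. In the cells with PAX6 or HES5, ZIC4 was at 2.93, 3.04, 10.4, 16.3, 80.7 and 58.2 CPM in the 6 somite libraries, so like ZIC1 it was lowest at E16 and highest at E21.

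LMX1A was densest in a small cluster of its own. Cluster 34, with 127 cells led by NPY, LMX1A, CTSL, TPBG and MSX1, held LMX1A in 68.5% of its cells (87), ZIC2 in 84.3% (107) and ZIC1 in 11.8% (15), but PAX6 in 5.51% (7), HES5 in 2.36% (3) and DBX1 and FOXB1 in none, where the floor of 3 cells with a UMI is 2.36%. It was present in all 6 somite libraries, with 8 to 40 cells each, and in neither E28 library. LMX1A was found in it in 25.0% of 8 cells in E16-ZZ and in 67.5% to 77.8% of the cells of the other 5 libraries. Because only 9 of these cells held PAX6 or HES5, the stage tests on cells with PAX6 or HES5 barely include them. The fits within the FABP7+ MSI1+ clusters include all 127, with 212 of the 706 LMX1A UMIs of that class.

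Cluster 9, with 2688 cells of the somite libraries, held intermediate, ventral and dorsal factors side by side, with PAX6 in 54.0%, ZIC2 in 32.2%, IRX3 in 31.03%, FOXB1 in 30.0%, NKX6-1 in 23.4%, NKX2-2 in 5.92%, LMX1A in 5.65%, ZIC1 in 4.13% and DBX1 in 4.09% of its cells. Within it NKX6-1 was found in 25.3% and 22.1% of cells at E16 (ZZ and DZ), in 29.5% and 31.4% at E18 and in 7.96% and 5.19% at E21. ZIC1 went the other way, with 1.78% and 1.25%, 2.26% and 2.19%, and 10.6% and 14.2%. PAX6 ranged only from 44.6% to 61.8% of its cells over the 6 libraries. In cluster 11 NKX6-1 was found in more cells than PAX6 at E16 (32.4% and 29.0% against 13.5% and 17.4%) and E18 (33.8% and 32.0% against 8.61% and 13.3%), and in fewer at E21 (11.4% and 5.21% against 24.6% and 21.5%). In cluster 14 NKX6-1 was found in 52.4% of 21 cells and 46.9% of 64 cells at E18, where no cell held PAX6, and in 9.69% and 8.68% at E21, where PAX6 was in 0.819% and 1.40%.

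In whole libraries, where the UMIs of all cells were summed, a change can come from fewer cells of a type or from less RNA per cell, and these cannot be told apart. PAX6 was at 15.7, 27.9, 30.7, 37.8, 17.7 and 9.54 CPM in the somite libraries from E16-ZZ to E21-DZ. From E16 to E18 ZIC1 was the only one of 9 tested members to pass, and rose by 1.84 (SE 0.25, adjusted p = 0.0211), from 0.298 and 0.349 CPM to 1.08 and 1.23 CPM, in a comparison where 4.63% of 15127 genes passed, 1.98% higher and 2.65% lower. The call was lost when any of the 4 libraries of the comparison was left out, with values of 1.78 to 1.89 (adjusted p = 0.0963 without E16-ZZ, 0.103 without E16-DZ, 0.129 without E18-ZZ and 0.178 without E18-DZ). From E18 to E21 ZIC1 rose by 3.07 (SE 0.22, adjusted p = 0.00120), to 8.91 and 10.2 CPM, and LMX1A fell by 1.77 (SE 0.33, adjusted p = 0.0141), from 4.78 and 6.11 to 1.82 and 1.31 CPM. In that comparison 21.2% of genes passed, 10.8% higher and 10.4% lower. The LMX1A call was lost without E18-ZZ (−2.03, adjusted p = 0.0770), E18-DZ (−1.54, adjusted p = 0.112) or E21-DZ (−1.47, adjusted p = 0.0610). PAX6 (−1.28, adjusted p = 0.0697) and FOXB1 (−1.76, adjusted p = 0.0537) did not pass with edgeR and passed with DESeq2 (adjusted p = 0.00743 and 0.00476). With edgeR, PAX6 also passed without E16-ZZ, E16-DZ or E21-ZZ (adjusted p = 0.0464, 0.0471 and 0.0202), FOXB1 without E28-ZZ or E28-DZ (adjusted p = 0.0269 and 0.0299), NKX6-1 without E21-ZZ (−1.93, adjusted p = 0.0425) and ZIC2 without E21-DZ (1.03, adjusted p = 0.00920). ZIC2 passed for E18 against E16 without E21-ZZ or E21-DZ (0.74 and 0.75, adjusted p = 0.0249 and 0.0234).

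At E28 PAX6, NKX2-2, NKX6-1 and FOXB1 were nearly gone, and 5 of the 10 factors were not. OLIG2 was too scarce to be placed in either group. From E21 to E28, 8.48% of genes passed, 4.32% higher and 4.16% lower, and 4 of the 9 tested members passed, all lower. PAX6 had 885 and 450 UMIs in E21-ZZ and E21-DZ and 0 in both E28 libraries, at least 136-fold lower when a library's floor of 3 UMIs is set against the lower E21 library. NKX2-2 had 154 and 96 UMIs at E21 and 12 and 1 at E28, and fell by 4.17 on the log2 scale (adjusted p = 0.0262). NKX6-1 had 713 and 216 UMIs and then 22 and 11, and fell by 4.65 (adjusted p = 0.0115). FOXB1 had 244 and 99 UMIs and then 5 and 0, and fell by 5.91 (adjusted p = 0.0115). The NKX2-2 call was lost without E18-ZZ, E18-DZ, E21-ZZ or E28-DZ (adjusted p = 0.0536, 0.0542, 0.0981 and 0.0550) and the NKX6-1 call without E28-DZ (adjusted p = 0.0522). NKX2-2 ranged from −6.82 without E28-ZZ to −3.20 without E28-DZ. NKX6-1 varied from −5.37 without E21-DZ to −3.59 without E21-ZZ, and FOXB1 reached −10.3 without E28-ZZ, where its only E28 library holds 0 UMIs. DBX1 (−0.21), IRX3 (−0.69), LMX1A (0.93), ZIC1 (0.42) and ZIC2 (0.22) did not pass, except ZIC2 without E21-ZZ (0.98, adjusted p = 0.0368). FABP7+ MSI1+ and neuron-like cells were also few in the E28 myotome, and stage and tissue cannot be told apart.

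DBX1 and LMX1A, though neural factors, were found in muscle-forming cells of the E28 myotome. Of the DBX1 UMIs of E28-ZZ and E28-DZ, 97.3% and 96.4% lay in skeletal myogenic-like cells, against 29.8% and 61.6% of those of LMX1A. DBX1 was found in 58 of 1403 of these cells in E28-ZZ (4.13%, exact 95% interval 3.15% to 5.31%) and in 260 of 2261 in E28-DZ (11.5%, 10.2% to 12.9%), against 4 of 736 in E21-ZZ and 1 of 769 in E21-DZ. In UMIs this was 73 and 397 at E28 against 4 and 1 at E21. In sums over the myogenic cells of the 8 libraries, a test added after these values were seen, DBX1 was 5.08 higher on the log2 scale at E28 than at E21 (SE 0.69, adjusted p = 0.000416), the only one of 6 tested members to pass where 5.04% of 10429 genes passed and 2.04% were higher. The value ranged from 3.06 without E28-DZ, where the call was lost (adjusted p = 0.0879), to 7.63 without E28-ZZ, and with DESeq2 it did not pass (5.81, adjusted p = 0.1502). LMX1A was at 1.97 and missed the threshold (adjusted p = 0.0547), but passed without E18-ZZ or E18-DZ (adjusted p = 0.0441 and 0.0421). The breeds were not compared within this class, and stage and tissue cannot be told apart. No E28 cell with PAX6 or HES5 held DBX1.

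**Figure D5:**
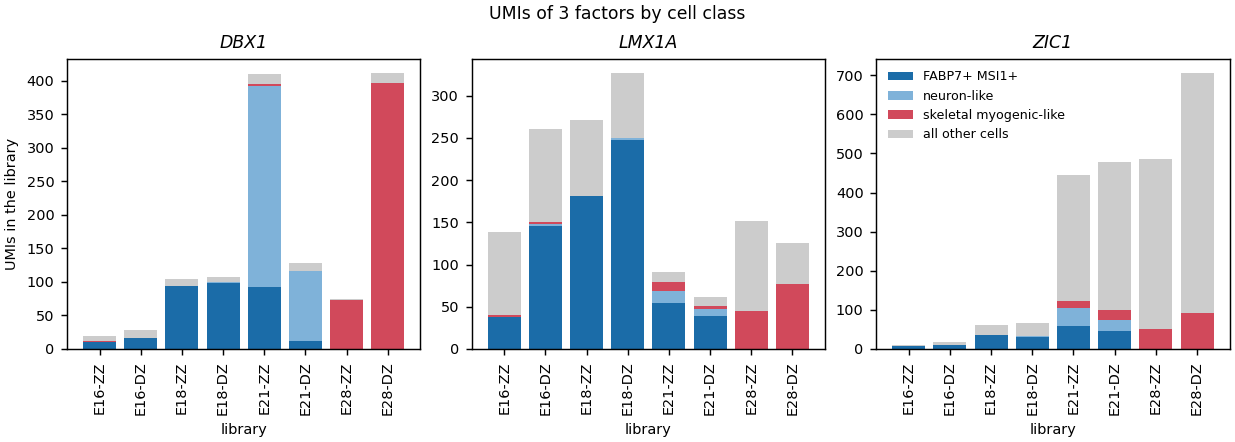
UMIs of DBX1, LMX1A and ZIC1 in each library, stacked by cell class. DBX1 lies mostly in FABP7+ MSI1+ cells at E18 (94 of 105 and 99 of 107 UMIs in ZZ and DZ) but only in part at E16 (10 of 20 and 17 of 29), mostly in neuron-like cells (clusters 11 and 14) at E21 and in skeletal myogenic-like cells at E28, LMX1A has FABP7+ MSI1+ cells as its main part up to E21-DZ except in E16-ZZ, and ZIC1 lies mostly in other cells from E21 on.

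Within the myogenic cells DBX1 and LMX1A lay in different clusters. 2 clusters (5 and 27) were led by MSC and MYF5, an early myogenic factor, and held PAX7 among their leading genes. In them DBX1 was found in 58 of 1118 cells of E28-ZZ (5.19%, 3.96% to 6.66%) and 257 of 1628 cells of E28-DZ (15.8%, 14.05% to 17.6%), and LMX1A in 0.626% and 0.676%. Cluster 28 was led by MYMK and MYOG, genes of myocytes that differentiate and fuse. In it DBX1 was found in 0 of 285 cells of E28-ZZ (exact 95% limit 1.29%, floor of 3 cells 1.05%) and in 3 of 633 cells of E28-DZ (0.474%), whereas LMX1A was found in 33 of 285 (11.6%, 8.11% to 15.9%) and 54 of 633 cells (8.53%, 6.47% to 10.98%). The same cluster held LMX1A in 8 of 152 cells of E21-ZZ (5.26%) and 4 of 139 cells of E21-DZ (2.88%), and the clusters led by MSC in 0 of 584 and 0 of 630. ZIC1 and ZIC2 were found at 3.85% and 8.05% in the clusters led by MSC in E28-ZZ and at 4.48% and 10.2% in E28-DZ.

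Other cells of the somite held single factors too, at high shares for ZIC2 and at lower shares for others. ZIC2 was found in 51.4% and ZIC1 in 12.9% of the cells of cluster 21, which has no name and is led by NPY, ZIC4 and CLDN11. Cluster 29, led by LAMC3 and by ACTG2 and RGS5, genes known from smooth muscle and pericytes, held ZIC2 in 47.1%, NKX6-1 in 12.5% and PAX6 in 0.297% of its cells. IRX3 was found in 15.4% of lateral mesoderm-like cluster 23. LMX1A was at 12.1 ± 18.6 CPM (SD over 8 libraries) in chondrocyte-like cells, from 0 to 54.4 CPM. Only 11 of 4201 of these cells held it (0.262%, 38 UMIs), so this mean rests on few cells. In epithelial-like cells it was at 8.18 ± 6.69 CPM (SD over 6 libraries) and in 83 of 3546 cells (2.34%). These clusters were read over all libraries together and were not compared between stages.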

How the data were processed

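The authors prepared 10x Chromium 3' libraries and deposited UMI counts per gene and barcode, which are whole numbers, not normalized, made with Cell Ranger 3.1.0 (both E16 libraries) or 3.0.2 (the other 6) on Sscrofa11.1 and filtered to called cells. The members and gene lists were chosen with earlier results of these data known. Barcodes with under 200 genes, over 30000 UMIs or over 10% UMIs of 13 mitochondrial genes were removed, then 7526 barcodes with the highest Scrublet scores (scanpy 1.11.5), at 0.8% per 1000 barcodes, since Scrublet's own threshold marked 1318. Counts scaled to 10000 UMIs gave 2000 variable genes without the members and HES5, 30 principal components, a graph of 3 neighbours per library and Louvain clusters at resolution 3.5. A cluster was named by at least 3 markers in 10% of its cells at 2-fold or more, a fold set after the counts were seen.

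Counts were summed over cells with at least 1 UMI of PAX6 or HES5, over all cells or, added after seeing the data, over myogenic cells, in sums of 20 or more cells, and compared with edgeR 4.0.16 (R 4.3.3; TMM, its default filter, quasi-likelihood test, stage and breed as terms) with Benjamini-Hochberg adjustment at 0.05 over all genes. Cells were not used as replicates. PAX6 and HES5 were not tested where they chose the cells. Leaving out a library leaves its stage with 1 sample, which is then assumed to vary like the others. The sample left is fitted by its own stage term, so leaving out either library of an uncompared stage gives nearly the same fit. All 10 members were described, and the genes named beside them were the 5 most like each member (at least 20 positive cells in 3 libraries and 50 UMIs; for PAX6 among cells with HES5) and the called genes of the fixed lists, with a few values of these lists added after they were seen. The tests were tried on simulated counts with known changes before use. Alternatives were DESeq2 1.42.0, other size factors, filters, gates and cell limits, and leaving out each library. Sequences came from RefSeq on Sscrofa11.1, the build of the counts.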

Additional observations from a re-analysis of the deposited data

Results flagged for a closer look

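The results here were listed because the ZZ pair and the DZ pair of libraries, or myogenic and neuron-like cells, moved in opposite directions. The difference was not tested in any of them, and each direction rests on 1 library against another. ZIC2 in cells with PAX6 or HES5 had a log2 ratio of E18 against E16 of −0.45 in ZZ and 0.071 in DZ, and of E21 against E18 of 0.075 in ZZ and −1.21 in DZ. From E21 to E28, in CPM without TMM factors, DBX1 was higher in skeletal myogenic-like cells by 8.54 in ZZ and 36.4 in DZ, and changed by −26.6 and −21.4 in neuron-like cells. LMX1A was higher by 3.31 and 6.28 in the former and changed by −1.34 and −1.64 in the latter. IRX3 was higher by 0.45 and 1.76 in myogenic cells and changed by −28.9 and −31.9 in neuron-like cells. ZIC1 was higher by 2.42 and 2.94 and changed by −4.01 and −4.92. ZIC2 was higher by 0.21 and 11.104 and changed by −26.6 and −12.3. Neuron-like cells were 28.0% and 13.6% of E21-ZZ and E21-DZ and 0.717% and 2.18% of E28-ZZ and E28-DZ.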

How the results depend on the processing

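The planned gate on clusters named as neural progenitors could not be run because the naming rule gave that name to none, and the FABP7+ MSI1+ clusters, alone and with cluster 11, took its place after the data were seen. No paired analysis was possible because every library is the only replicate of its group, so no replicate numbers pair libraries, but breed was a term in the fits, which compares the stages within each breed. Of the recomputed counts 105 stayed within 1.5 times of the value reported, 14 came out weaker, 8 stronger and 1 otherwise changed. The counts of members below are not set against the share of all genes called in each fit. No change in the members is therefore read from them. In cells with PAX6 or HES5, 1 member was called for E18 against E16 with PAX6 as the only gate gene, and 1 to 3 when a library was left out. For E21 against E18, 4 to 5 were called when a library was left out. Within cluster 11 alone, 0 were called for E18 against E16 and 3 for E21 against E18. In whole libraries, ZIC1 at E18 against E16 was not called at a mitochondrial limit of 5% (0 members), and 0 to 2 members were called when a library was left out. For E21 against E18, 4 were called with DESeq2 and 4 without breed as a term, and 1 to 4 without a library. For E28 against E21, 2 to 4 were called without a library. In myogenic cells 0 were called with DESeq2, 2 without the filter and 0 to 2 without a library. After thinning to 2000 UMIs, PAX6 with NKX2-2 stayed below expectation in all 6 somite libraries and NKX6-1 with DBX1 in 5. In E16-DZ, the library left, 0 thinned cells held DBX1, so the number could not be below expectation. Other causes were not tested.

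Counts of all genes called moved more. For E18 against E16 in cells with PAX6 or HES5 (528), they were 260 with DESeq2, 1288 without the filter, 252 at the 5% limit, 308 with at least 2 gate UMIs, 328 with HES5 as the gate and 34 in cluster 11, 343 in FABP7+ MSI1+ clusters with it and 276 to 1151 without a library. For E21 against E18 (2468) they were 1220 with DESeq2, 600 in cluster 11 and 1328 to 2949 without a library, and for the breeds (0) up to 137. In whole libraries they were, for E18 against E16 (700), 2145 with DESeq2, 36 at the 5% limit, 1062 without breed and 16 to 921 without a library, for E21 against E18 (3210) 312 to 3461 without a library, and for E28 against E21 (1283) 2308 with DESeq2 and 324 to 993 without a library. In myogenic cells (526) they were 274 with DESeq2, 846 without the filter and 238 to 646 without a library.

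Directions turned in 35 of the recomputed values of single members, each of a difference that had not passed except IRX3 for E21 against E18 within cluster 11 (0.78), where ZIC2 turned too (0.70). For E18 against E16 in cells with PAX6 or HES5 these were LMX1A with HES5 as the gate (0.41) and in FABP7+ MSI1+ clusters (0.55, or 0.49 with cluster 11), IRX3 in cluster 11 (−0.12), and ZIC2 with HES5 as the gate (0.10) and without E18-ZZ (range without a library −0.68 to 0.21). For E21 against E18 it was LMX1A with at least 2 gate UMIs (0.25). Between the breeds it was NKX2-2 with DESeq2 (−0.036), at the 5% limit (−0.017), with at least 2 gate UMIs (−0.15), with PAX6 as the gate (−0.14) and without an E18 library (range −0.33 to 0.21). ZIC2 turned at the 5% limit (0.088), in FABP7+ MSI1+ clusters (0.0057) and without an E21 library (−0.41 to 0.21), LMX1A with at least 2 gate UMIs (−0.59) and with HES5 as the gate (−0.082), ZIC1 with at least 2 gate UMIs (0.19) and in FABP7+ MSI1+ clusters with cluster 11 (0.11), FOXB1 in cluster 11 (0.17) and without an E16 library (−0.38 to 0.055) and NKX6-1 without an E21 library (−0.64 to 0.0058). In whole libraries LMX1A turned for E18 against E16 at the 5% limit (−0.33), NKX2-2 for E21 against E18 without E18-DZ or E21-DZ (−0.66 to 0.068), ZIC2 for E21 against E18 without E21-ZZ (−0.35 to 1.03), DBX1 for E28 against E21 without E21-ZZ or E28-ZZ (−1.87 to 1.14) and ZIC2 for E28 against E21 without E21-DZ (−0.39 to 0.98). With 2 libraries a stage, small differences of scarce genes such as OLIG2 are beyond this depth.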
